A study of Mus musculus with 12 samples.

Results

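The response to lipopolysaccharide (LPS) was followed in mouse peritoneal macrophages (PMφs) that had first been loaded with oxidized low-density lipoprotein (oxLDL), which turns them into lipid-filled, foam-like cells. It was read from 6 of the 12 libraries of the study, 3 from cells given oxLDL alone and 3 from cells given oxLDL and then LPS (oxLDL+LPS), and the other 6 libraries came from control cells and from cells given LPS without oxLDL. All cells were wild-type (WT) C57BL/6J cells from male and female littermates of 8 to 12 weeks, drawn by lavage 4 days after 1 ml of 4% aged thioglycolate, which recruits inflammatory macrophages to the cavity, and kept if they adhered over 18 h. The methods say that up to 10 mice were pooled in an experiment and the pooled cells divided among the 4 groups, so a replicate is a pool of animals and not a mouse. The number 1 libraries without and with LPS differ in sex-linked transcripts, given below, and so cannot be 1 divided pool. The oxLDL was human medium-oxidized LDL at 100 µg/ml for 24 h and the LPS was ultrapure at 10 ng/ml, and the methods give LPS times of up to 3 h or up to 6 h in general, without naming the time of these libraries. Poly(A) RNA was sequenced, and the deposited values are gene counts that the authors scaled per library, called normalized counts below. Strand use in counting is not stated, so reads of overlapping antisense genes may be mixed. A gene was tested where at least 3 of the 6 libraries had a value of at least 10, which kept 12900 of 43278 gene symbols.

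LPS is a wall component of Gram-negative bacteria that macrophages sense through TLR4, with CD14 and MD-2 (the product of Ly96) as co-receptors. From the cell surface the adaptor MyD88 leads to NF-κB and AP-1 and to genes for cytokines and chemokines, and from endosomes the adaptor TRIF leads to IRF3 and interferon-β, which acts back on the cell through STAT factors and IRF9 to switch on interferon-stimulated genes. In atherosclerotic lesions macrophages meet both modified LDL and inflammatory signals, and loading changes lipid sensors such as LXR and PPARγ that are themselves tied to inflammatory genes.

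Before any comparison, the libraries were checked against their labels. Summed over 11 macrophage markers the oxLDL libraries held 237517 to 250153 normalized counts and the oxLDL+LPS libraries 260041 to 298973. Markers of T and NK cells summed to at most 16 in any of the 6 libraries, and the neutrophil genes S100a9 and Ly6g were at 0 in all of them. Markers of mesothelial cells and fibroblasts summed to 6135 to 20709 without LPS and 5453 to 18596 with it, were lowest in replicate 3 of both groups, and none of their 12 genes passed the test, although 2 were called higher and 1 lower with the replicate number as a block. Some markers moved with LPS: those of neutrophils summed to 44 to 61 without and 132 to 260 with it, with S100a8 at 36, 31 and 49 and then at 134, 118 and 248. Those of eosinophils summed to 190 to 307 and 60 to 109, mostly from Siglecf at 258, 303 and 180 and then at 66, 104 and 55. The eosinophil genes Prg2, Prg3 and Ear6 were at 0 in all 6 libraries. Those of large peritoneal macrophages summed to 2734 to 3559 and 11355 to 25756, mostly from Saa3. The part of these markers in the results was not tested. The oxLDL label was met by Cd36, a receptor for modified LDL that lipid loading raises, which stood at 67666, 53483 and 93423 with oxLDL and at 40346, 32725 and 36968 in control cells, with no overlap. The paper reports a rise of this gene from its own RNA sequencing, so the outcome was known beforehand. The oxLDL+LPS libraries are not set against LPS alone here. Sex-linked transcripts differed between the libraries of number 1: Xist, made only from an inactive X chromosome, was at 2, 5933 and 3568 in the oxLDL libraries and at 3812, 6085 and 3676 in the oxLDL+LPS libraries. Number 2 had no transcript of the Y-linked gene Ddx3y in either group, whereas number 3 had 718 and 775. In bulk RNA a change in the number of cells of a type and a change in RNA per cell cannot be told apart.

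LPS changed 54.5% of the genes measured in loaded cells. Of the 12900 genes, 3633 (28.2%) were higher and 3397 (26.3%) lower with LPS at an adjusted p under 0.1, the threshold used for every call below. A change of at least 2-fold was called for 1569 genes upward (12.2%) and 1399 downward (10.8%). The 2 groups did not overlap for 29.6% of genes upward and 28.0% downward, the background for every statement on overlap below. The response was lopsided at its extremes. Rises of at least 8-fold were called for 421 genes and falls of at least 8-fold for 91. At least 32-fold rises were called for 158 genes and at least 512-fold rises for 26, and 24 genes fell by at least 16-fold. Arhgap19 had the largest called fall, 30.4-fold, among genes with a mean of at least 10 normalized counts in each group. The depth of a fall is bounded by the value without LPS. The 1569 genes raised at least 2-fold took 7.87%, 7.8% and 8.21% of all normalized counts in the 3 oxLDL libraries and 29.2%, 31.9% and 32.7% in the 3 oxLDL+LPS libraries. The 1399 genes lowered at least 2-fold went from 7.87%, 8.25% and 7.87% of the total to 2.44%, 2.02% and 1.94%.

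How the split of rises and falls is read depends on scaling. Library totals were 17440329 to 17444102 normalized counts with oxLDL and 22071853 to 23346854 with oxLDL+LPS, and on the authors' scale the median gene changed by -0.02 on the log2 scale. Dividing each library by its own total moved that median to -0.40 and the split to 2055 genes higher and 6617 lower, and quantile normalization moved it to -0.13 with 2848 higher and 4283 lower. Changes and counts below are given on the authors' scale, and of 566 called genes on the gene and marker lists or named, 36 changed sign with library totals or quantiles as the scale. With both libraries of number 1 left out, 3094 genes were called higher and 2729 lower.

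**Figure D1:**
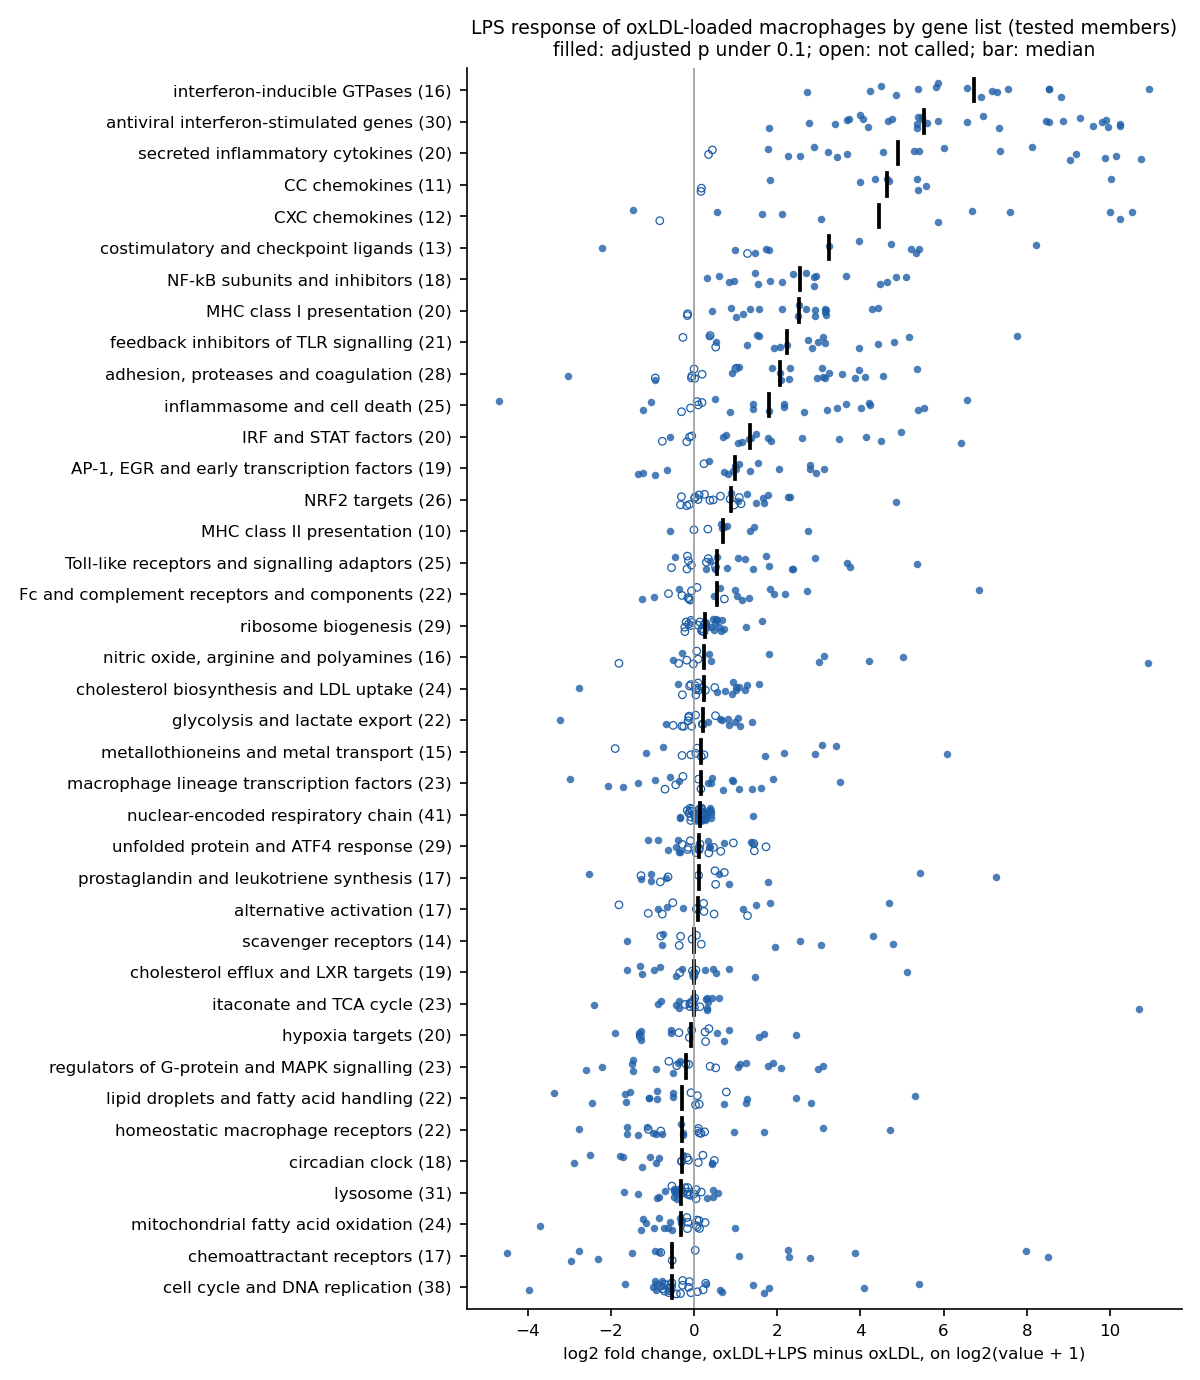
Each point is a tested member of a gene list, placed by its log2 fold change between oxLDL+LPS and oxLDL libraries (3 against 3) on log2(value + 1), with filled points for genes that passed the test, open points for the rest, black bars for list medians and numbers of tested members in brackets. Interferon-inducible GTPases, antiviral genes, cytokines and chemokines lie far to the right with medians above 4, whereas lists of metabolism, lysosome and cell cycle are centred near 0 with single genes far out on either side.

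Interferon-stimulated genes formed the broadest induced program. All 30 tested members of a list of antiviral interferon-stimulated genes and all 16 interferon-inducible GTPases were higher with LPS, against 28.2% of all genes, with median log2 changes of 5.54 and 6.73 against -0.02 over all genes. Every one of these genes was also called with library totals or quantiles as the scale and with the libraries of number 1 left out. Many sit in clusters: Rsad2 (chr12:26442746-26456452, minus strand) and Cmpk2 (chr12:26469204-26479837, plus strand) are neighbours read away from each other, and Ifit2, Ifit3, Ifit3b and Ifit1 follow one another between chr19:34550694 and 34650009 on the plus strand (GENCODE on GRCm38).

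Most of the 10 rises with the smallest p-values came from this program. Rsad2, which encodes the antiviral enzyme viperin, had 502, 594 and 511 normalized counts in the oxLDL libraries and 174242, 194857 and 196691 in the oxLDL+LPS libraries, a log2 change of 8.46 ± 0.10 (SE). Cmpk2, the mitochondrial nucleotide kinase next to it, went from 144, 176 and 137 to 94456, 95055 and 95184 (9.28 ± 0.11, adjusted p = 2.2e-08, the smallest of all genes and shared with Acod1). The replicates of each group lay close together and far from those of the other group for both, which the choice by smallest p-values favours. Isg15, a ubiquitin-like protein attached to other proteins during antiviral responses, rose from 68, 71 and 53 to 23694, 22744 and 25138. Ifit1, whose product binds foreign RNA caps, rose from 27, 83 and 54 to 47851, 44156 and 53707, and its relatives Ifit2 (997-fold by group means) and Ifit3 (1227-fold) moved as far. Mx1, a dynamin-like antiviral GTPase that is defective in many laboratory strains, rose from 29, 27 and 24 to 29951, 28641 and 42833. Ifit3 and Ifit3b, listed under its older symbol I830012O16Rik at 4, 6 and 5 without LPS and 4385, 5146 and 4360 with it, are near-identical copies, so reads may have been split between them.

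Among the GTPases that attack vacuoles of intracellular microbes, Gbp5 had the largest log2 change of all genes with a mean of at least 10 counts without LPS: 17, 26 and 27 became 34658, 50741 and 59850 (10.95 ± 0.24). Ifi47, an immunity-related GTPase, rose from 132, 141 and 157 to 12953, 13710 and 14057. The smallest change on the list was that of Gbp8 at 2.72 on the log2 scale. Also among the 10 rises with the smallest p-values were Pyhin1, of the family of DNA-sensing PYHIN proteins, at 419, 388 and 460 against 21812, 22055 and 22153, and Ms4a4c, a membrane protein of the MS4A family, at 4, 3 and 3 against 5056, 4911 and 4126. Neither group overlapped the other for any of these genes. Gbp5 was picked among genes without overlap, and Ifi47, Pyhin1 and Ms4a4c by their small p-values, which favours such separation.

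Promoters of some induced genes carry short sequences that are textbook sites of the factors named above. The 200 bases before 23 induced genes were searched, of which 10 held a match and 13 did not, and 6 of the 10 are shown, chosen because they hold one. Each line gives the 200 bases before the RefSeq start site, 5′ to 3′ on the strand of the gene, from build GRCm38.p6. Capitals mark matches to GAAA, any 2 bases and GAAA (the core of the interferon-stimulated response element) or to GGG, any 2 bases and TTTCC (a κB sequence), searched on both strands, so that reverse matches read TTTC, any 2 bases and TTTC, or GGAAA, any 2 bases and CCC. The windows are chr19:34640689-34640888 (plus strand) for Ifit1, chr4:156200819-156201018 (minus strand) for Isg15, chr12:26456453-26456652 (minus strand) for Rsad2, chr3:142496734-142496933 (plus strand) for Gbp5, chr5:90903699-90903898 (plus strand) for Cxcl2 and chr12:55492648-55492847 (minus strand) for Nfkbia.
Ifit1: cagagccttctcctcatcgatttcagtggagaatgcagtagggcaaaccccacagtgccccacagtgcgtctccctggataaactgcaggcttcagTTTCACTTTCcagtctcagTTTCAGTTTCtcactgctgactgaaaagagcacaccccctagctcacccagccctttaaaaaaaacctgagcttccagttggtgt
Isg15: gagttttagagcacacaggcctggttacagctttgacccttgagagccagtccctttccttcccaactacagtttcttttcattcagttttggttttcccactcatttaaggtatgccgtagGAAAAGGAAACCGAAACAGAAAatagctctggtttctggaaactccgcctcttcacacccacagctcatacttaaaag
Rsad2: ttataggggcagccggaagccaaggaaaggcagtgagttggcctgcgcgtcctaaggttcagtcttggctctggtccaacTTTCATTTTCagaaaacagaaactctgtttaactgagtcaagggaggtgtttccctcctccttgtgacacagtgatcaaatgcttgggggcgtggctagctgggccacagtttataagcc
Gbp5: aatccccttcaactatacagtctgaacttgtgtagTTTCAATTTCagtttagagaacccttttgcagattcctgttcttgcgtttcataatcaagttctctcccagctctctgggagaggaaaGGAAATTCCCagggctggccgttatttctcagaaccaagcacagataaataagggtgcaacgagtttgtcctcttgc
Cxcl2: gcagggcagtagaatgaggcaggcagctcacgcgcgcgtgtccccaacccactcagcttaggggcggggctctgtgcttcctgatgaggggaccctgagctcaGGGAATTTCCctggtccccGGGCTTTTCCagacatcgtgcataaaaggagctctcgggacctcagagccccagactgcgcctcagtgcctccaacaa
Nfkbia: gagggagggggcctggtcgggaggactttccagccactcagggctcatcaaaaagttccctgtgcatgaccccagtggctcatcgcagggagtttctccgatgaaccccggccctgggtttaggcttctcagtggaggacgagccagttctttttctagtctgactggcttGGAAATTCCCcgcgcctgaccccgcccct
Ifit1 has 2 matches to the interferon element, beginning 104 and 85 bases before the start site, and Isg15 has 3 overlapping ones that merge into 1 run. Rsad2 has 1 beginning at 120 bases, Gbp5 has 1 match of each kind, Cxcl2 has 2 κB matches at 97 and 78 bases, and Nfkbia has 1 at 29 bases. Of all 32851 RefSeq windows of 300 bases (250 before and 50 after the start), 3.44% held the interferon element and 1.63% the κB sequence. Windows were matched for 9449 of the tested genes (73.3%), too few to compare shares between groups of genes. The 13 without a match in the letters searched were Il1b, Tnf, Cxcl10, Cmpk2, Acod1, Ifit2, Irf1, Irf7, Oasl1, Tap1, Icam1, Il12b and Ptgs2, some of them among the largest rises. Only 1 window was read per gene, and Ifit2 and Irf1 have 2 RefSeq windows each, so their other start sites were not searched here.

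The factors that relay interferon rose with their targets. Of 20 IRF and STAT factors and their receptors and kinases, 15 were called higher and 1 lower (3 lower with the replicate number as a block in the fit). Irf7, which amplifies interferon production, went from 249, 405 and 261 to 22679, 31147 and 23496 (6.42 ± 0.21). Stat2 and Irf1 rose 22.5-fold and 31.9-fold by group means. Irf3, the factor that is activated in place and not by synthesis, stood at 848, 864 and 909 without LPS and at 699, 906 and 834 with it and was not called. Irf8, a factor of macrophage identity, was the call downward, from 2863, 2996 and 2991 to 1797, 2442 and 1731. Ifnb1, the gene of interferon-β itself, was too low in these libraries to be tested.

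Genes that present antigen also rose. On the MHC class I list 18 of 20 tested genes (90.0%) rose, against 28.2% of all genes, with a median of 2.51. The peptide pump Tap1 rose 19.5-fold and the class I activator Nlrc5 rose 21.6-fold. The light chain B2m went from 35475, 46764 and 32483 to 64323, 93535 and 70819. For B2m the groups did not overlap but the fold was only 1.99. Class II genes moved less, 7 of 10 being called higher and 1 lower, with H2-Ab1 at 2.51-fold. Of 13 costimulatory and checkpoint ligands 11 rose, led by Cd40, a receptor for T-cell help, from 38, 29 and 60 to 8754, 14085 and 15312, and by Icosl at 41.8-fold. Cd274, which encodes PD-L1, rose from 2162, 2482 and 3010 to 32952, 43601 and 42565. Vsir, the checkpoint protein VISTA (listed as 4632428N05Rik), went the other way, from 10691, 10701 and 9995 to 2218, 2217 and 2332.

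**Figure D2:**
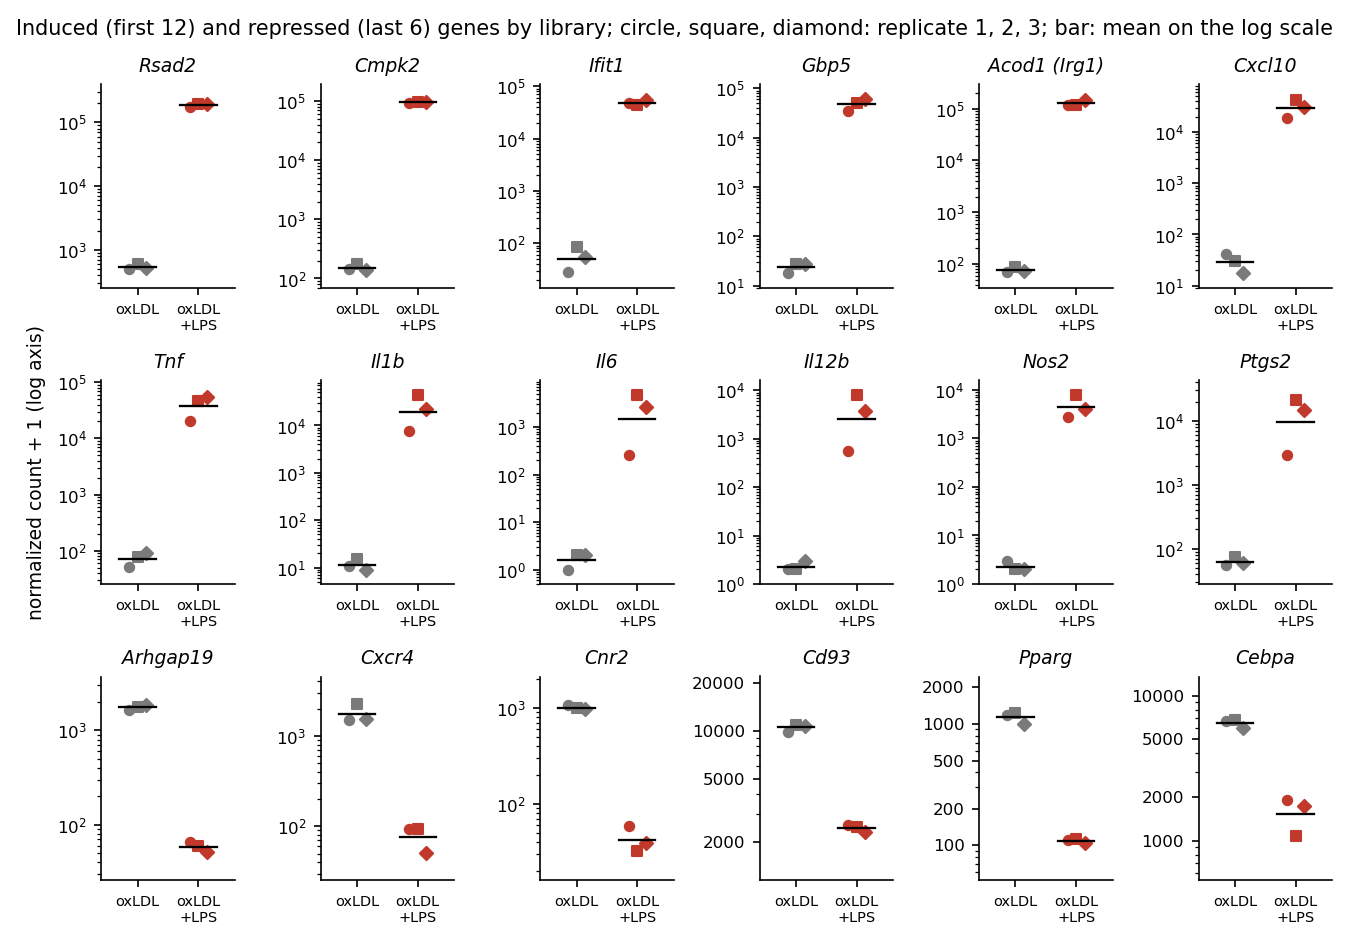
Normalized counts plus 1 on a log axis for 12 induced and 6 repressed genes in each of the 3 oxLDL (grey) and 3 oxLDL+LPS (red) libraries, with symbols for replicate number and bars for the mean on the log scale. The groups do not overlap for any of the 18 genes, and replicates of Rsad2, Cmpk2 and Acod1 lie almost on one another, whereas Il6 spans 261 to 4786 and Il12b 563 to 8009 among the oxLDL+LPS libraries.

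Cytokine genes also rose steeply but varied more between pools. Of 20 tested genes for secreted inflammatory cytokines 18 (90.0%) were higher and none lower, against 28.2% and 26.3% of all genes. Their median log2 change was 4.91. Tnf went from 50, 76 and 89 normalized counts to 20752, 45676 and 53561 (9.03 ± 0.37). Il1b, the precursor of interleukin-1β that inflammasomes cut, went from 10, 14 and 8 to 7630, 44508 and 21943 (10.74 ± 0.58). Il1a went from 309, 437 and 344 to 7499, 72239 and 22810. The groups did not overlap for any of the 3, although the oxLDL+LPS libraries differed widely among themselves for Il1b and Il1a.

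Interleukin genes that start from almost nothing spread widely. Il6 was at 0, 1 and 1 without LPS and at 261, 4786 and 2683 with it. Il12b, which encodes the shared p40 chain of interleukins 12 and 23, was at 1, 1 and 2 and then at 563, 8009 and 3757. Il12a was at 1, 0 and 2 and then at 290, 1964 and 2040, and Il23a at 1, 0 and 0 and then at 10, 181 and 59. In all of these replicate 1 was the lowest of the oxLDL+LPS libraries. Il27, whose product acts on T cells, rose from 20, 13 and 20 to 1148, 4731 and 5018. Il10, an anti-inflammatory cytokine counted among the feedback inhibitors, rose from 5, 8 and 5 to 64, 17 and 28 (2.24 ± 0.51). Osm and Tgfb1 were the 2 members not called.

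The spread had a pattern. Replicate 1 was the lowest oxLDL+LPS library for 19 of the 20 cytokine genes, at a median of 1.01 below the gene mean on the log2 scale, with replicates 2 and 3 at 0.78 and 0.22 above it. The median SD between the oxLDL+LPS libraries was 1.06 on the log2 scale for cytokine genes and 0.18 for antiviral genes. NRF2 targets had another order, with replicate 2 lowest for 25 of 26 genes, at 0.79 below the gene mean. Replicate 2 was also lowest for them without LPS, with medians of -0.07, -0.54 and 0.59 in oxLDL replicates 1, 2 and 3. Their median SD was 0.63 between the oxLDL libraries and 0.69 between the oxLDL+LPS libraries. For cytokine genes the SD between the oxLDL libraries was 0.34. The part of the pools' sex and of mesothelial transcripts in this spread was not tested. With both libraries of number 1 left out 18 cytokine genes were called higher, with a median of 5.34.

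**Figure D3:**
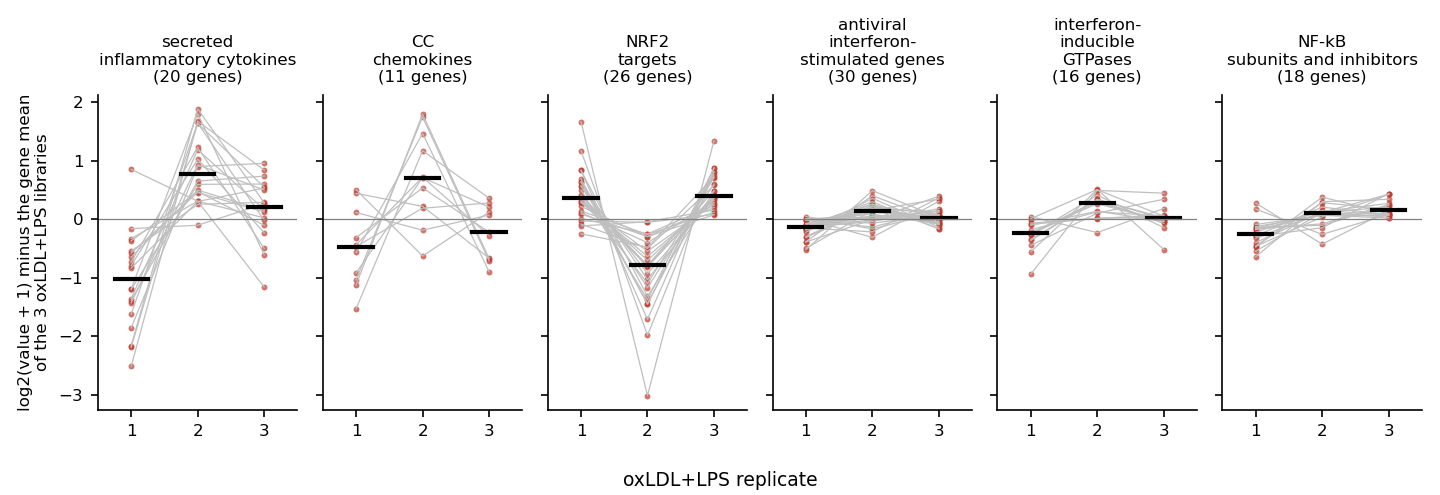
For 6 gene lists, each red point is a gene in 1 of the 3 oxLDL+LPS libraries, plotted as its log2(value + 1) minus the mean of that gene over the 3 libraries, with grey lines joining the points of a gene, black bars for medians and no order among replicate numbers. Cytokine genes sit low in replicate 1 and NRF2 targets low in replicate 2, while antiviral genes stay within about 0.14 of the mean by their medians.

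Chemokine genes split into strong, moderate and unmoved members. Of 11 tested CC chemokines 9 (81.8%) rose, with a median of 4.64. Of 12 CXC and related chemokines 10 (83.3%) rose and 1 (8.33%) fell (2 with the block), with a median of 4.45. Over all genes 28.2% rose and 26.3% fell. Ccl12, Cxcl9 and Cxcl11 were at 0 in every oxLDL library, and with these set to a floor of 3 counts per library the medians were 4.35 and 3.66. Ccl5, a T-cell attractant, rose from 36, 100 and 16 to 29969, 47169 and 50205. Cxcl2, a neutrophil attractant, rose from 9, 9 and 15 to 8649, 19667 and 30265. Cxcl10, an interferon-induced attractant of T cells, rose from 41, 30 and 17 to 18813, 42411 and 31239. The monocyte attractant Ccl2 rose less, from 376, 186 and 130 to 1970, 14896 and 2690, with 1 library far above the other 2. Cxcl9 was at 0, 0 and 0 and then at 90, 643 and 124. Ccl6 and Ccl8 were not called, and Cxcl14 was called lower, at -1.46 on the log2 scale, but not with number 1 left out.

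The machinery that carries and then restrains the signal was itself induced. All 18 NF-κB subunits and inhibitors rose, against 28.2% of all genes, although 15 did so when libraries were divided by their totals. The largest changes were those of genes of the IκB family, which are named as NF-κB inhibitors. Nfkbiz, Nfkbie and Nfkbia changed by 5.09 ± 0.24, 4.85 ± 0.12 and 4.64 ± 0.11 on the log2 scale, and Tnfaip3, the A20 enzyme that removes ubiquitin from the pathway, went from 927, 1005 and 1115 to 9607, 13875 and 15314. The subunit Rela rose 2.92-fold. Among feedback inhibitors of TLR signalling 18 of 21 rose, with Socs3 from 194, 146 and 186 to 6653, 6834 and 5467, Socs1 30.7-fold higher and the secreted antagonist Il1rn at 3927, 2281 and 2103 against 19283, 23971 and 15054. The phosphatase gene Dusp1, an early brake on MAP kinases, was at 615, 606 and 754 and then at 1112, 712 and 788 and was not called.

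Early-response transcription factors did not move together. Of 19 tested AP-1, EGR and related genes 14 (73.7%) were higher and 4 (21.1%) lower, against 28.2% and 26.3% of all genes. With library totals as the scale 10 were higher and 4 lower. Ets2 and Junb rose 8.86-fold and 4.19-fold, whereas Jun fell from 4820, 5134 and 4309 to 2499, 1833 and 1769 and Fos, at 703, 372 and 824 against 454, 107 and 268, was called lower although its groups overlapped. Myc was not called and its sign turned when libraries were divided by their totals.

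Receptors for microbes rose unevenly. Tlr4 itself was at 1289, 1261 and 1293 without LPS and 1087, 1322 and 1095 with it, a change of -0.14 ± 0.10 on the log2 scale that was not called, but was called lower with library totals, with quantile normalization and without oxLDL+LPS replicate 2. Its co-receptor gene Cd14 rose from 1479, 1224 and 1009 to 14066, 16728 and 15926, and Tlr2, the receptor for bacterial lipopeptides, from 365, 516 and 314 to 10028, 26925 and 15095. Of 25 receptors and adaptors 16 were higher and 1 lower (2 with the block), and 6 were lower with library totals as the scale. Tlr3, which senses double-stranded RNA, rose 14-fold and Myd88 5.21-fold. Chemoattractant receptors were split, 7 of 17 higher and 7 lower, 41.2% each against 28.2% and 26.3% of all genes. The formyl peptide receptors Fpr1 and Fpr2 rose from 2, 3 and 6 to 1955, 450 and 1517 and from 4, 7 and 2 to 2036, 1299 and 2152. Cxcr4, which retains cells in tissues that make its ligand, fell from 1501, 2265 and 1519 to 92, 93 and 50, and C5ar2 fell 7.31-fold.

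Inflammasome and cell death genes were mostly raised, 17 of 25 being higher and 3 lower. Nlrp3, the sensor of the best-known inflammasome, went from 130, 155 and 190 to 4822, 8735 and 9183, and Casp4, the mouse caspase-11 that binds LPS in the cytosol, from 181, 176 and 209 to 3197, 3720 and 3653. Casp1 rose 4.43-fold and the nucleic acid sensor Zbp1 95.7-fold. Nlrp1b, a sensor of bacterial proteases, fell most, being at 60, 93 and 98 without LPS and 10, 0 and 2 with it. Of 28 genes for adhesion, proteases and coagulation 19 (67.9%) rose and 2 (7.14%) fell, against the same shares of all genes. The adhesion molecules Icam1 and Vcam1 rose 43.6-fold and 23.5-fold and F10 (coagulation factor X) rose 16.3-fold. Thbd, the anticoagulant thrombomodulin, fell from 707, 786 and 687 to 159, 98 and 44. Complement factor B, Cfb, rose from 3, 6 and 3 to 582, 566 and 511.

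Metabolic genes of activated macrophages changed singly, with few lists moving as a whole. Acod1, listed as Irg1, makes itaconate from a citric acid cycle intermediate, and it rose from 68, 85 and 73 to 117526, 117803 and 145830 (10.70 ± 0.12). The other 22 genes of that list lay between -2.42 and 0.61 on the log2 scale, the lowest being Idh1, the cytosolic isocitrate dehydrogenase, which fell from 5057, 4581 and 5465 to 1535, 574 and 933. Nos2, the inducible nitric oxide synthase, was at 2, 1 and 1 and then at 2703, 7805 and 4004. Arg1, which competes for the same arginine, was at 1176, 3408 and 395 and then at 1169, 420 and 74 and was not called, but was with the replicate number as a block (adjusted p = 0.026). Among 17 genes of prostaglandin and leukotriene synthesis 5 rose and 5 fell (8 fell with the block), shares of 29.4% each against 28.2% and 26.3% of all genes. Ptgs2, the inducible cyclooxygenase, went from 55, 74 and 58 to 2888, 21485 and 14644 and Ptges, the prostaglandin E synthase that works with it, from 168, 98 and 109 to 5895, 4949 and 5103. Hpgds, the prostaglandin D synthase, fell from 2091, 2541 and 2193 to 441, 403 and 333.

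Glycolysis genes moved in both directions. Of 22, 9 (40.9%) were higher and 2 (9.09%) lower, against 28.2% and 26.3% of all genes, and with library totals as the scale 6 were higher and 10 lower. Hk2 (2.71-fold) and Slc2a1 (1.75-fold) rose under each scaling, whereas Slc2a3, another glucose carrier, fell from 89, 53 and 68 to 19, 9 and 1. Hif1a rose from 1938, 1990 and 1778 to 5868, 6207 and 6157, and of 20 hypoxia targets 6 (30%) were higher and 7 (35%) lower, shares near the 28.2% and 26.3% of all genes, among the latter Vegfa at 2.3-fold and Epas1 at 3.74-fold. NRF2 targets, the antioxidant genes that oxidized lipids induce, had 10 of 26 higher and none lower, 17 higher and 2 lower with the replicate block, 16 higher without oxLDL+LPS replicate 2 and 4 higher with both libraries of number 1 left out. Slc7a11, the cystine carrier, led them at 443, 338 and 1101 against 13290, 11348 and 26118. Hmox1 was called higher with overlapping groups, at 9106, 7989 and 13359 against 55988, 12622 and 43842, and was not called with number 1 left out (adjusted p = 0.22). Nqo1 and Gclm were not called but were with the block (adjusted p = 0.09 and 0.017).

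The genes that handle the stored lipid were reshaped. Uptake receptors diverged: Cd36 was not called at 59206, 41849 and 64548 with LPS (adjusted p = 0.30, and 0.036 with the replicate block, where it was lower), whereas Msr1 rose from 3431, 3104 and 5028 to 17211, 13282 and 13502, Marco from 65, 60 and 82 to 1797, 640 and 2184, and Olr1 from 32, 68 and 34 to 779, 2521 and 859. All 3 are scavenger receptors. Of 14 scavenger receptor genes 5 (35.7%) were higher and 3 (21.4%) lower, shares near the 28.2% and 26.3% of all genes, or 6 and 6 with the block. Of 24 genes of cholesterol synthesis and uptake 10 (41.7%) were higher and 2 (8.33%) lower (8 lower with library totals as the scale). Dhcr7, which completes the last step to cholesterol, fell from 1342, 1045 and 1071 to 236, 117 and 165.

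Cholesterol exporters parted company. Abca1, which loads cholesterol onto apolipoprotein A-I, rose from 1796, 2042 and 1813 to 6418, 5190 and 4231, whereas Abcg1, which exports to HDL, fell from 7123, 6374 and 7163 to 2207, 2500 and 2054. Neither pair of groups overlapped. Ch25h, which makes 25-hydroxycholesterol and is also an interferon target, rose from 15, 12 and 5 to 226, 1043 and 224. Apoe was not called, at 128658, 114352 and 123429 against 134345, 114052 and 116068. Over the LXR target list 6 of 19 genes (31.6%) were higher and 7 (36.8%) lower, against 28.2% and 26.3% of all genes, or 3 and 9 with library totals and 3 and 8 with quantiles as the scale.

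Genes of lipid storage moved in both directions. On the list of lipid droplets and fatty acid handling 11 of 22 genes were lower and 6 higher, against 26.3% and 28.2% of all genes, and the counts were also 11 and 6 with number 1 left out. Pparg, the nuclear receptor that drives lipid uptake genes, fell from 1193, 1227 and 997 to 109, 112 and 103 (-3.38 ± 0.12). Its targets Fabp4 and Plin2 fell 5.42-fold and 2.12-fold, and Soat1, which esterifies cholesterol for storage, fell from 17895, 20758 and 17238 to 6420, 5966 and 5161. Among the 6 that rose were Dgat2, an enzyme of triglyceride storage, from 5, 5 and 7 to 34, 37 and 72, the lipase gene Lipe (2.38-fold), Acsl5 (2.41-fold) and Acsl4 (1.65-fold). The other two were Fabp3 from 43, 68 and 32 to 1287, 2796 and 1764 and the acyl-CoA synthetase Acsl1 from 1241, 1264 and 1174 to 6918, 6491 and 6854. Of 24 genes of mitochondrial fatty acid oxidation 14 (58.3%) were lower and 1 (4.17%) higher. Ppargc1a, a coactivator that promotes oxidation, was at 34, 76 and 39 and then at 3, 3 and 2. Of 31 lysosomal genes 11 (35.5%) were lower and 4 (12.9%) higher, against 26.3% and 28.2% of all genes. With the block 17 were lower, and with library totals as the scale 26 were, where 6617 of all 12900 genes were lower. Lipa, which frees cholesterol from the lipoprotein taken up, was at 45954, 44736 and 57482 against 31830, 20095 and 29239. Npc1, which moves that cholesterol out of the lysosome, was 1.79-fold lower. The regulator of lysosomal genes Tfeb fell 2.54-fold.

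**Figure D4:**
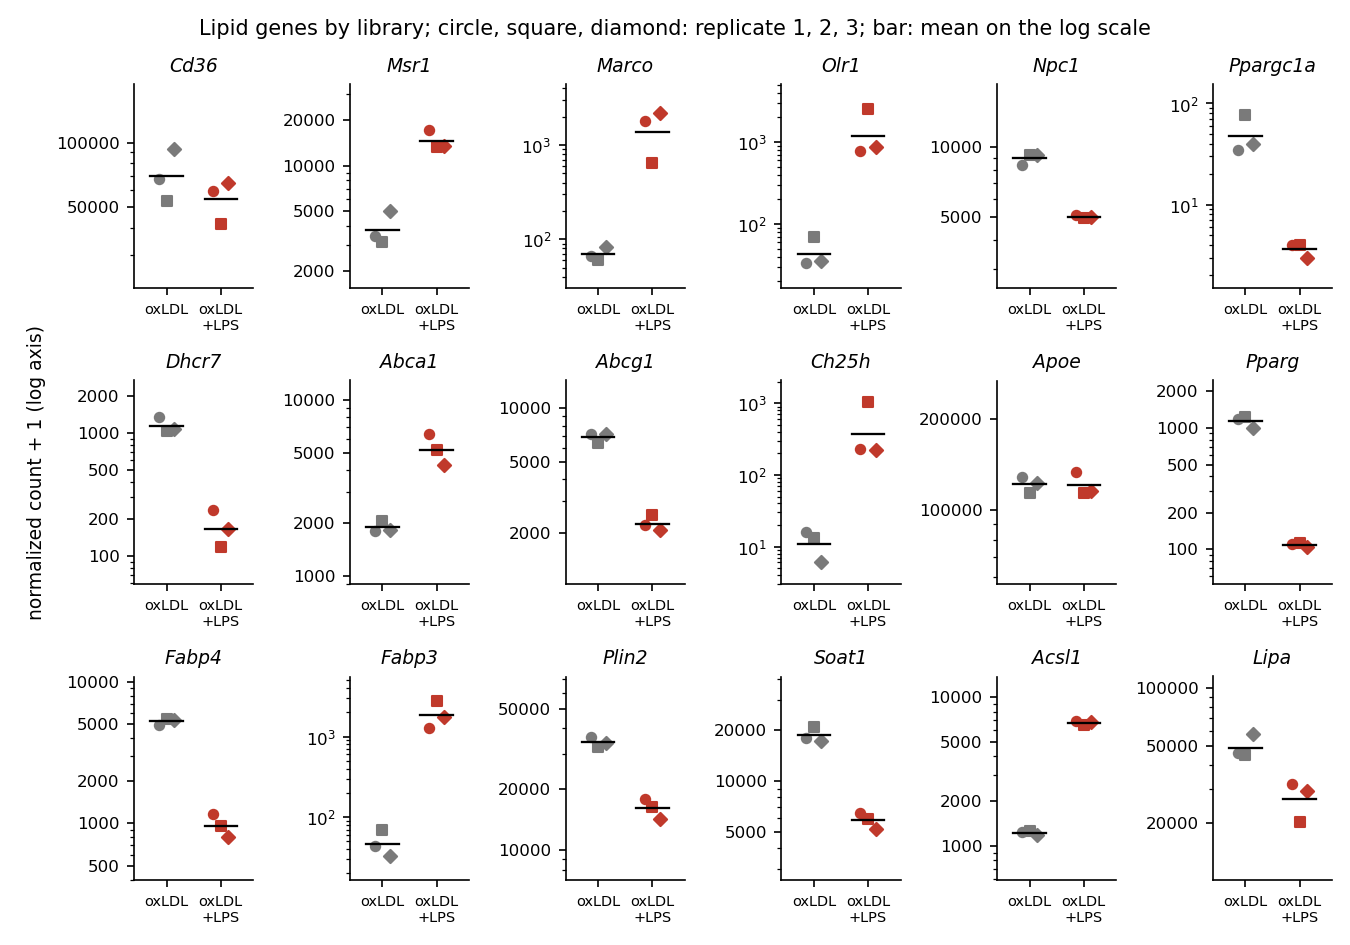
Normalized counts plus 1 on a log axis for 18 genes of lipid uptake, synthesis, export, storage and breakdown in the 3 oxLDL (grey) and 3 oxLDL+LPS (red) libraries, with symbols for replicate number and bars for the mean on the log scale. Abca1 and Abcg1 move in opposite directions, Pparg, Fabp4, Plin2 and Soat1 fall with no overlap between groups, and Cd36 and Apoe overlap.

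The most repressed genes were of other kinds. Arhgap19, a GTPase-activating protein (chr19:41766588-41802047, minus strand), fell from 1654, 1776 and 1861 to 65, 58 and 51 (-4.91 ± 0.12). Cnr2, the cannabinoid receptor of immune cells, fell from 1065, 991 and 969 to 58, 31 and 38. Lpin1, a phosphatidate phosphatase of lipid synthesis, fell from 752, 906 and 837 to 65, 56 and 23, and St6gal1, a sialyltransferase, from 1648, 1938 and 1558 to 129, 81 and 88. All 4 were picked for large falls among genes whose groups do not overlap, so their separation follows from the choice. Cd28, Rasgrp3, Vash2, Tcp11l2 and Cxcr4 were also among the 10 largest falls, which ran from 17.3-fold to 30.4-fold. Arhgap19 also had the smallest p-value of all falls. Others among the 10 falls with the smallest p-values were less deep. Cd93, a lectin-like receptor of myeloid cells, fell from 9864, 10912 and 10669 to 2563, 2499 and 2329, the lysosomal channel gene Tpcn1 from 1924, 1875 and 1780 to 250, 204 and 223, and the sugar-phosphate carrier Slc37a2 from 6672, 6790 and 7215 to 1257, 1285 and 1140. Klhl9, Tmem65, Tbc1d2 and Tmem154 fell by 3.11-fold to 11.3-fold.

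Genes of resident and resting macrophages were lowered in part. Cebpa, a transcription factor of myeloid identity, fell from 6678, 6784 and 6007 to 1901, 1072 and 1749, whereas Spi1 (PU.1) rose 1.88-fold and Cebpb, which inflammation induces, 3.05-fold. Of 23 lineage factors 11 (47.8%) were higher and 7 (30.4%) lower, or 6 and 10 with library totals and 7 and 8 with quantiles as the scale, against 28.2% and 26.3% of all genes. Among 22 homeostatic receptors 11 were lower and 4 higher. Cx3cr1 fell 9.1-fold from low values, whereas Adgre1 (listed as Emr1, the F4/80 antigen), Axl and Mertk rose 3.31-fold, 8.65-fold and 1.95-fold. Csf1r was not called at 9691, 10573 and 12080 against 15372, 8043 and 12925, and the sign of its change turned with library totals, with quantile normalization and without number 1. Mrc1 was called lower at 3794, 3624 and 3576 against 2766, 3477 and 2929, a call that was lost with number 1 left out.

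Of 38 cell cycle genes 10 (26.3%) were lower and 8 (21.1%) higher, no more than the 26.3% and 28.2% of all genes. With the replicate block 22 were lower, and with library totals as the scale 23 were lower and 6 higher. E2f2 fell 15.6-fold, Ccnd2 rose from 95, 55 and 69 to 1657, 5346 and 3193, and the cell cycle inhibitor gene Cdkn1a rose from 1024, 1341 and 1214 to 14773, 22513 and 25056. Of 18 circadian clock genes 9 were lower and 2 higher, with Npas2 at 142, 136 and 179 against 15, 32 and 15 and Dbp 6.1-fold lower. Ribosome biogenesis genes had 14 of 29 higher and none lower, but 4 higher and 8 lower with library totals as the scale. Respiratory chain genes had 13 of 41 (31.7%) higher, near the 28.2% of all genes, and 2 (4.88%) lower, below the 26.3% of all genes. With library totals 1 was higher and 22 lower, and with quantiles 1 and 14. The medians of both lists, 0.27 and 0.14, turned negative with library totals.

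The response of loaded cells was set beside that of unloaded cells. LPS raised 31.4% and lowered 30.3% of 13023 genes tested in unloaded PMφs, and the 2 responses share no library, although the methods say that pools were divided among the groups. Of 12748 genes tested in both, 3403 were higher in both, which is 94% of the rises in loaded cells and 85.2% of those in unloaded cells. Falls in both numbered 3145, or 93.5% and 80.5%, and no gene was called in opposite directions. The test of the difference between the 2 responses, over all 12 libraries and 13482 genes, called 0 genes with limma, with 418 at an unadjusted p under 0.05 and a smallest adjusted p of 0.99991. It called 0 with the replicate number as a block (967 at an unadjusted p under 0.05) and 147 (1.09%) with the number as a block within each LPS state, which does not tie the number 1 libraries with and without LPS to each other. Those 147 were 55 (0.408%) with a larger and 92 (0.682%) with a smaller value in loaded cells, and 0 were called when all 4 libraries of number 1 or of number 3 were left out, against 717 without number 2.

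The lists differed in where their members lay. For cytokines the change was smaller in loaded than in unloaded cells for all 20 genes, with a median difference of -1.27 on the log2 scale, and for CC chemokines for all 11, with a median of -1.54. For antiviral genes the median difference was -0.13, with 24 of 30 genes below 0, and for NRF2 targets it was 0.31, with 22 of 26 genes above 0. Over all 13482 genes 6979 were below 0 and 6503 above, with a median of -0.009. None of these genes passed the unblocked test of the difference, and 4 cytokines and 5 CC chemokines passed with the block within LPS state, which did not hold without number 1 or number 3. Other lists also leaned below 0: 19 of 21 feedback inhibitors (median -0.41), 12 of 13 costimulatory genes (-0.54) and 18 of 20 MHC class I genes (-0.10). Il1b, for example, changed by 10.74 in loaded and 12.76 in unloaded cells, a difference of -2.02 ± 0.83. Rsad2 changed by 8.46 and 8.43.

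**Figure D5:**
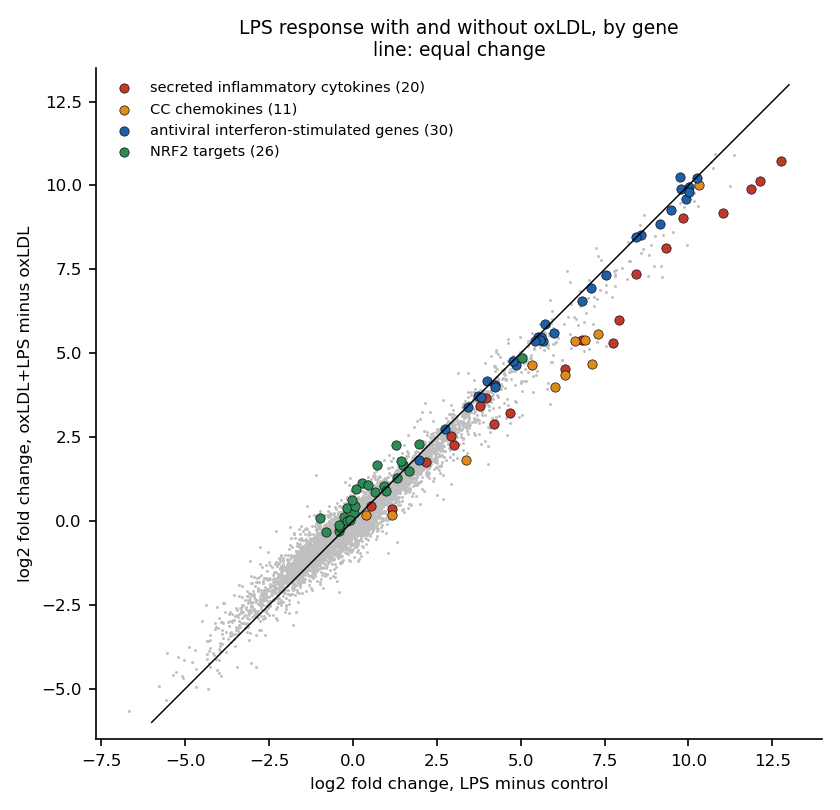
Each of 12731 genes is placed by its log2 fold change with LPS in unloaded cells (LPS minus control, horizontal) and in oxLDL-loaded cells (oxLDL+LPS minus oxLDL, vertical), with 4 gene lists in colour and a line of equal change. Antiviral genes lie near the line with 24 of 30 below it, all 20 cytokine and all 11 CC chemokine genes lie below it, and 22 of 26 NRF2 targets lie above it.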

How the data were processed

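A set of 12 poly(A) RNA libraries was deposited, and 6 of them (3 oxLDL, 3 oxLDL+LPS) carry the response described. The deposited values are read counts per gene that the authors scaled per library and rounded (a normalized signal). The submitters' processing notes name Trimmomatic 0.32, STAR 2.5.1b and featureCounts of Subread, with mm10 (GRCm38). Because rounding hides whole reads, count tests were not used. Spacing between low values gave size factors of 0.708 to 1.31, which imply 16700000 to 22800000 reads per oxLDL library and 20300000 to 20700000 per oxLDL+LPS library.

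Values were taken as log2(value + 1), which understates changes of low genes, for genes at 10 or more in at least 3 of the 6 libraries, and tested with limma 3.58.1 (R 4.3.3, trended variance) with Benjamini-Hochberg adjustment over all genes tested and a threshold of 0.1. The difference between responses was an interaction over all 12 libraries. Scripts were checked on simulated data. Named genes were the 10 largest non-overlapping changes in each direction with a mean of at least 10 in the lower group, the 10 smallest p-values in each direction, the extreme, textbook and uncalled members of the lists, and the 5 smallest p-values in each direction for the difference. Other named genes were chosen after their values were seen. The members and lists were chosen with earlier results of these data known.

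Replicate numbers come from the labels, and the methods say that pools were divided among groups. Over 12900 genes the deviations of same-numbered oxLDL and oxLDL+LPS libraries correlated at 0.28, 0.50 and 0.61, and those of different numbers at -0.47 to 0.03. Every same-numbered pair exceeded 0.1, but the number 1 libraries differ in sex-linked transcripts and so cannot be 1 divided pool, and the block was kept as an alternative. Alternatives were other filters, pseudocounts, scalings, variance models and thresholds, a replicate block, a fit of all 12 libraries and leaving out libraries. The 25 symbols turned into dates were left unnamed. Results of some genes are not reported here. Promoter windows are from RefSeq (GRCm38.p6) and gene positions from GENCODE.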

Additional observations from a re-analysis of the deposited data

Results flagged for a closer look

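For 15 named genes the LPS change was called different between loaded and unloaded cells by limma, with the replicate number as a block within each LPS state. Socs3, Dusp16, Spred1, Gda, Cebpa, Klc4, AA474331 and Arhgef6 had been named for small p-values of this difference in the same libraries. Their passing here is therefore no separate support. The differences below are loaded minus unloaded on the log2 scale, and the adjusted p-values of the 15 genes ran from 0.0376 (Ptgs2) to 0.0974 (AA474331). Inflammatory and feedback genes rose less in loaded cells: Ccl2 by -1.96, Ptgs2 by -1.95, Il1a by -1.92, Socs3 by -1.33, Tnfaip3 by -0.94, Nfkbia by -0.57 and Hif1a by -0.41. The MAP kinase phosphatase gene Dusp16 differed by -0.87, the guanine deaminase gene Gda by -0.84 and the RAS-MAP kinase inhibitor gene Spred1 by -0.69. Values above 0 were found for Cebpa (1.07), Arhgap19 (0.87), the kinesin light chain gene Klc4 (0.79), AA474331 (0.62) and Arhgef6, a guanine nucleotide exchange factor (0.58).

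None of the 15 passed without a block, where the smallest adjusted p of any gene was 0.99991. With the block within LPS state 147 of 13482 genes (1.09%) passed. With all libraries of number 1 left out 0 did, with number 2 left out 717 and with number 3 left out 0.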

How the results depend on the processing

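With the replicate number as a block, which for number 1 ties libraries that differ in sex-linked transcripts, 8185 genes were called in loaded cells (4133 higher, 4052 lower) against 7030 without it. Leaving out 1 library at a time gave 5966 to 6919 calls (3204 to 3593 higher, 2762 to 3326 lower). A change of at least 2-fold as well left 2968 calls, 1569 higher and 1399 lower. Library totals as the scale gave 2055 higher and 6617 lower. The difference between responses had 0 calls, 0 to 6 when 1 library was left out (6 without oxLDL+LPS replicate 2), 147 with the block within LPS state and 717 with that block when number 2 was left out. Of 1129 values of named genes under alternatives, 1097 kept direction and side of the threshold, 12 lost the call, 14 gained it and 6 turned. Those that turned were Csf1r, at -0.27 with library totals, -0.58 with quantile normalization, -0.075 to 0.39 when 1 oxLDL+LPS library was left out and -0.15 without both libraries of number 1, and Myc, at -0.15 with library totals and -0.011 to 0.50 when 1 oxLDL+LPS library was left out. The cause was not tested. Leaving out a replicate number as a whole was chosen after seeing the data. With rounded, scaled values and 3 pools a group, small changes and genes near 0 are the least certain.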

Other observations

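Genes of metal handling and of the unfolded protein response were measured in the same loaded cells. Of 15 genes of metal binding and transport 6 (40.0%) were higher with LPS and 2 (13.3%) lower, against 28.2% and 26.3% of all genes, or 6 and 4 with the replicate block. Lcn2, which captures bacterial iron carriers, rose from 17, 17 and 12 normalized counts to 1358, 766 and 1267 (6.09 on the log2 scale). Of 29 genes of the unfolded protein and ATF4 response 6 (20.7%) were higher and 7 (24.1%) lower, below the 28.2% and 26.3% of all genes. The counts were 12 and 8 with the block, 3 and 12 with library totals and 4 and 13 with quantiles as the scale. Of 23 regulators of G-protein and MAP kinase signalling 8 (34.8%) were higher and 9 (39.1%) lower, against 28.2% and 26.3% of all genes.

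Of 22 genes of Fc and complement receptors and components 11 (50%) were higher and 3 (13.6%) lower, against 28.2% and 26.3% of all genes, but 8 and 9 with library totals and 8 and 8 with quantiles as the scale. With the block 5 were lower. Of 17 alternative activation genes 4 (23.5%) were higher and 3 (17.6%) lower, below the shares of all genes, or 5 and 6 with the block. On the nitric oxide and arginine list 8 of 16 genes were higher and 2 lower, or 8 and 4 with the block.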
